A study of Homo sapiens with 4 samples.

Results

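The RAB genes encode a family of small GTPases, and this account covers the 58 RAB genes, of 16785 protein-coding genes, that the peak files of 2 leukemia cell lines listed. They were taken by symbol: RAB, a number and at most 1 further letter, in any of the 4 files. Of the 63 protein-coding genes whose current symbol has that form in RefSeq, RAB29 and RAB6D were listed under other symbols (RAB7L1 and LOC150786), RAB39B, RAB44 and RAB7B had no row in any file, and RAB39A was listed as RAB39. Chromatin immunoprecipitation and sequencing (ChIP-seq) was done in RS4;11, a line from an acute lymphoblastic leukemia of B-cell precursors, and in THP-1, a line from an acute monocytic leukemia. Both lines carry a rearranged MLL gene, and both grew in RPMI1640 medium with 10% FBS, without any treatment that separates the groups. In each line 1 sample was made with an antibody to WDR5 (ab56919) and 1 with an antibody to H3K4me3 (ab8580), so each group is 1 sample of 1 cell line, no spread between replicates can be given, and no difference between the lines was tested. The 95% Wilson intervals given for shares cover the number of genes counted only.

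WDR5 is a scaffold protein of the MLL and SET1 complexes, which methylate lysine 4 of histone H3, and the trimethylated form, H3K4me3, marks the starts of transcribed genes and of genes ready for transcription. RAB proteins switch between a GDP-bound form in the cytosol and a GTP-bound form on a membrane, where they recruit effectors that move, tether and fuse vesicles. Each membrane compartment carries its own set of RAB proteins, and blood cells rely on some of them for phagosomes, granules and the recycling of receptors.

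The cell type labels of the THP-1 WDR5 sample and of the RS4;11 H3K4me3 sample name the other leukemia. The lines were therefore checked with marker genes, by H3K4me3. In RS4;11 cells H3K4me3 peaks were listed at exons of 4 of 11 B-lineage and 5 of 11 myeloid markers, and in THP-1 cells of 6 and 7. By presence the markers did not separate the lines: PAX5, EBF1 and BLNK, all B-lineage genes, were listed in THP-1 cells only, and CEBPE, a myeloid gene, in RS4;11 cells only. The check had been planned by presence, and width was added to it. By width, the markers listed in both lines did separate them, a part of each list that leaves out PAX5, EBF1, BLNK and CEBPE. The B-lineage markers CD79B and CD22, listed in both lines, had the wider peak in RS4;11 cells, and the 4 myeloid markers listed in both (CD14, LYZ, ITGAM and CD33) had the wider peak in THP-1 cells. WDR5 peaks were listed at RAG1 in RS4;11 cells and at EBF1 and VPREB3 in THP-1 cells, all B-lineage markers. No myeloid marker had one. These are too few for a check, so the label of the THP-1 WDR5 sample stays unchecked. In the H3K4me3 files no peak exceeded 4478 bp in RS4;11 cells or 4446 bp in THP-1 cells, and whether wider peaks were lost is unknown. Of 12 genes that nearly all cells transcribe, chosen after their values were seen, 1 and 2 had an exon peak, and ACTB, GAPDH and B2M had none in either line. Of 81 ribosomal protein genes, which nearly all cells transcribe too, 63 (77.8%) and 55 (67.9%) had one, beside 63.1% and 69.7% of all genes. Of the 81, 77 had a row in any file, whereas every background gene had one. Most ribosomal protein genes were thus listed, and most of the 12 genes were not. For a RAB gene with no listed peak, a lack of the mark was not tested.

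WDR5 peaks were listed at 3 RAB genes: RAB28 and RAB23 in the RS4;11 file and RAB3C in the THP-1 file. RAB28 and RAB23 act at the primary cilium, RAB28 in the cone cells of the retina and RAB23 as a brake on Hedgehog signalling, and RAB3C acts in regulated exocytosis. The RS4;11 share was 2 of 58 (3.45%, interval 0.951 to 11.7%), beside 4.90% of all genes, and the THP-1 share was 1 of 58 (1.72%, interval 0.305 to 9.14%), beside 1.63%. Both shares are near those of all genes. RAB28 was the RAB gene with more than 1 WDR5 peak, as were 50 of the 822 genes with a WDR5 peak in RS4;11 cells (6.08%). No RAB gene had a WDR5 peak in both lines, and the 2 and 1 listed genes are too few to read anything from that. The nearest WDR5 peak of the other line lay at least 1103082 bp from each WDR5 peak of a RAB gene.

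Of the 4 WDR5 peaks, those at RAB28 and RAB3C are shown, because they are the WDR5 sequence of the family on which the comparison with H3K4me3 turns. They are written 5′ to 3′ on the plus strand of GRCh37, which has the coordinates of hg19, with each CG dinucleotide (CpG) in capitals. All 3 genes have their peaks in introns and none at an exon. The RAB28 peak at chr4:13485248-13485542 lies in intron 1 of 7 exons, RAB28 being on the minus strand, and the peak at chr4:13432010-13432295 lies in intron 4. The RAB3C peak at chr5:57922155-57922565 (intron 2 of 5 exons, plus strand) is shown by its central 300 bases, chr5:57922210-57922509. The RAB23 peak lies in intron 2 of 7 exons.
RAB28, intron 1, RS4;11: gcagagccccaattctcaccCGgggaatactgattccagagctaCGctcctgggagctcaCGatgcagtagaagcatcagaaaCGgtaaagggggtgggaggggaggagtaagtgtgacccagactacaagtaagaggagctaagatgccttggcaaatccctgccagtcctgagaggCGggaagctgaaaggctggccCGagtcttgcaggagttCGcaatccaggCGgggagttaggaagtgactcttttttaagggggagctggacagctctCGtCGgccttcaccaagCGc
RAB28, intron 4, RS4;11: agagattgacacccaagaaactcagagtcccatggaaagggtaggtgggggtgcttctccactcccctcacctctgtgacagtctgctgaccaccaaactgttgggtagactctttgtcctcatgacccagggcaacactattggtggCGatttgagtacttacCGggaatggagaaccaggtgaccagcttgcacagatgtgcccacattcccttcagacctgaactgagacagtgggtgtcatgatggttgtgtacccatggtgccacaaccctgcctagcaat
RAB3C, intron 2, THP-1: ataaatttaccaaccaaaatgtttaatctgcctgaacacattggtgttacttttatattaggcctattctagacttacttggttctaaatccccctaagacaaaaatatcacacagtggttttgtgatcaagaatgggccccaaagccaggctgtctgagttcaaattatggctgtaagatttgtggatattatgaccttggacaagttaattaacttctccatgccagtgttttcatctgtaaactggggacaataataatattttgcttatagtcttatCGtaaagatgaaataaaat

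The 3 sequences differed in CpG content. The RAB28 intron 1 peak held 11 CpG in 295 bp, which is 3.73 per 100 bp, with a GC content of 56.6%. The RAB28 intron 4 peak held 2 CpG in 286 bp at 52.8% GC. Over its whole width the RAB3C peak held 1 CpG in 411 bp at 35.0% GC.

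Of the 4 WDR5 peaks, 1 lay on H3K4me3. The RAB28 intron 1 peak lay 422 to 716 bp downstream of the annotated start of the gene (chr4:13485964) and wholly within the H3K4me3 peak of RS4;11 cells at chr4:13484494-13487203. The other RAB28 peak lay 52199 bp from the nearest H3K4me3 peak of RS4;11 cells, and its center was 53811.5 bp into the gene. The RAB23 peak lay 11783 bp from the nearest H3K4me3 peak of the same line, with its center 13553 bp into the gene. The RAB3C peak lay 42369 bp from the nearest H3K4me3 peak of THP-1 cells, with its center 43458 bp into the gene. In RS4;11 cells 1 of the 3 RAB WDR5 peaks therefore overlapped H3K4me3, beside 8.25% of all 703 WDR5 peaks, and in THP-1 cells 0 of 1 did, beside 12.0% of all 225. These counts are too small for a comparison of the family with all peaks.

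**Figure D1:**
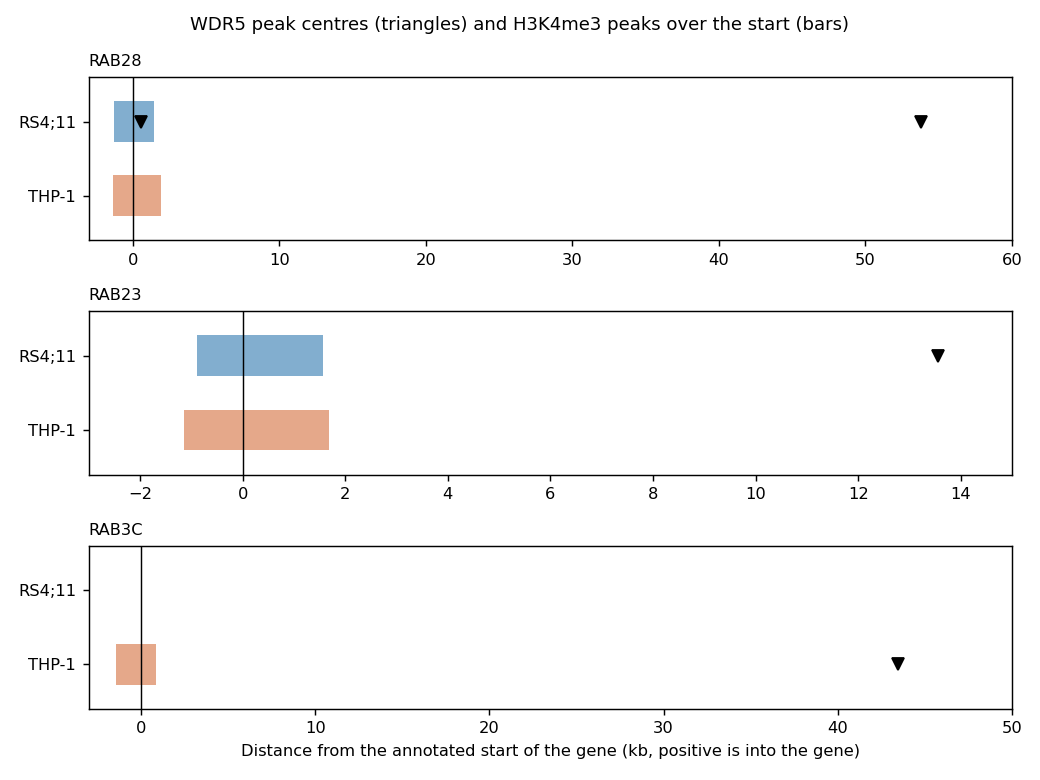
WDR5 peak centers (triangles) and the H3K4me3 peak over the gene start (bars, blue for RS4;11 and orange for THP-1) at RAB28, RAB23 and RAB3C, against the distance from the annotated start in kb, with a separate scale for each gene. Of the 4 WDR5 peaks, the RAB28 peak 569 bp into the gene is the one that lies on an H3K4me3 bar, and RAB3C has no bar in RS4;11 cells.

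H3K4me3 at RAB28 was listed in both lines with 1 peak each. The RS4;11 peak was 2710 bp wide and ran from 1239 bp upstream to 1470 bp downstream of the start. The THP-1 peak, chr4:13484062-13487291, was 3230 bp wide, from 1327 bp upstream to 1902 bp downstream, and held the whole RS4;11 peak. It was 1.19 times as wide in the line without a listed WDR5 peak at the gene. RAB23 had the same order, with 2466 bp in RS4;11 against 2836 bp in THP-1 cells, a ratio of 1.15. The THP-1 peak was the wider one at 24 of the 37 RAB genes marked in both lines, and a link of width with WDR5 was not tested. RAB3C had an exon peak in THP-1 cells only (2316 bp), the line with its WDR5 peak.

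The rest of the family was compared by H3K4me3. The files flag a peak, transcript by transcript, as exonic, intronic, or within 20 kb upstream or downstream, and a gene was counted as marked where a peak was flagged at an exon. In RS4;11 cells 42 of 58 RAB genes were marked (72.4%, interval 59.8 to 82.2%), beside 63.1% of all genes. In THP-1 cells 46 of 58 were marked (79.3%, interval 67.2 to 87.7%), beside 69.7%. Both lines shared 37 of them (63.8%, interval 50.9 to 74.9%), beside 55.2%. The interval over RAB genes holds the share of all genes in each of these 3 counts. With 5 genes the RS4;11 line alone had 8.62% (interval 3.74 to 18.6%), beside 7.93%. With 9 genes THP-1 alone had 15.5% (interval 8.38 to 26.9%), beside 14.5%. These shares were close to those of all genes. No exon peak was listed in either line for 7 genes, 12.1% (interval 5.97 to 22.9%), beside 22.3% of all genes.

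Among RAB genes of the early endosome, 8 of 9 were marked in each line. RAB5B and RAB5C, which with RAB5A drive the fusion of early endosomes, were marked in both lines, with 3336 bp and 2295 bp in RS4;11 cells and 3671 bp and 2996 bp in THP-1 cells. RAB5A had a peak of 3794 bp in RS4;11 cells (chr3:19987075-19990868) and no exon peak in THP-1 cells, where the nearest peak lay 15260 bp upstream of its start. RAB17, which acts in transcytosis in epithelia, had the opposite pattern, with 1299 bp in THP-1 cells and none in RS4;11 cells. RAB22A, which acts in endosomal recycling, was 1.63 times as wide in RS4;11 cells (3122 bp) as in THP-1 cells (1910 bp), and the THP-1 peak began downstream of the annotated start. RAB31, which moves cargo between the Golgi and endosomes, had 1 listed peak in RS4;11 cells (2238 bp), whereas THP-1 cells had 10, the widest of 3184 bp and 5 of them in introns only, and was picked out after its values were seen.

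Of the 12 genes of recycling and polarised transport, RS4;11 cells had 9 marked and THP-1 cells had 10. The recycling pair RAB11A and RAB11B differed. RAB11A had 3235 bp and 3217 bp, nearly the same width in both lines, whereas RAB11B had 2511 bp in RS4;11 against 1663 bp in THP-1 cells, 1.51 times as wide in RS4;11. RAB13, known from tight junctions, was wider in THP-1 cells, 3750 bp against 2440 bp, a ratio of 1.54. RAB15, of recycling endosomes, had an exon peak of 2482 bp in RS4;11 cells and one of 855 bp in THP-1 cells, a ratio of 2.90. This ratio comes from 1 peak set against 2, because a further THP-1 peak of 779 bp covered the start (chr14:65439022-65439800), and against the 1634 bp of both the ratio was 1.52. RAB15 was the single gene of the 37 marked in both lines at which more than 1 peak of one line lay on the widest exon peak of the other. RAB35, which acts in recycling and on actin, had one of the widest peaks of the family, 3400 bp in RS4;11 and 3944 bp in THP-1. RAB14, which acts between the Golgi and endosomes, was marked in THP-1 cells only (3713 bp). RAB10, which acts in basolateral delivery and glucose transporter traffic, and RAB25, an epithelial relative of RAB11, had no exon peak in either line.

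Genes of late endosomes and lysosomes were marked in 4 of 6 cases in RS4;11 and 5 of 6 in THP-1, a list that adds RAB29 and RAB7B to 4 members. RAB7A, the main RAB of late endosomes, had 2945 bp and 3004 bp, a ratio of 1.02. RAB9A and RAB9B, which return cargo from late endosomes to the Golgi, were marked in both lines, RAB9A with 3094 bp and 2773 bp and RAB9B with 1367 bp and 1291 bp. RAB12, which sends receptors to lysosomes, was marked in THP-1 cells only (1639 bp). Its listed peaks in RS4;11 cells were 1 in an intron and 1 upstream.

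In the ER and Golgi group, 11 of 14 genes were marked in each line and 10 in both. RAB1A and RAB1B, which carry vesicles from the ER to the Golgi, had 3351 bp and 3060 bp in RS4;11 cells and 3588 bp and 3305 bp in THP-1 cells. RAB33A, a Golgi RAB, had the largest ratio toward THP-1 cells in the family, 1431 bp in RS4;11 against 4068 bp in THP-1 (2.84-fold). Its paralog RAB33B, which binds the autophagy protein ATG16L1, was marked in THP-1 cells only, with 3545 bp. RAB6B, the neuronal form of RAB6, was also wider in THP-1 cells, 1617 bp against 641 bp (2.52-fold). RAB43, which acts at the Golgi, was wider in RS4;11 cells, 3963 bp against 2525 bp (1.57-fold). RAB19, a Golgi RAB, was marked in RS4;11 cells only, with 812 bp. The values for RAB6C (708 bp and 739 bp) are uncertain, because RAB6C is a near copy of RAB6A and the authors kept unique alignments only. RAB2A, which acts between the ER and the Golgi, and RAB41 had no exon peak in either line.

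The largest gap between the lines by presence was in the group of regulated secretion and lysosome-related organelles, with 6 of 10 genes in RS4;11 and 9 of 10 in THP-1, a group too small to set apart from the family. RAB27A and RAB27B, which dock secretory granules and exosome-bearing endosomes at the plasma membrane, split between the lines. RAB27A had 2347 bp in RS4;11 cells (chr15:55580706-55583052) and in THP-1 cells 3 listed peaks, 2 in introns and 1 downstream. RAB27B had 1495 bp in THP-1 cells (chr18:52495092-52496586) and no listed peak in RS4;11 cells. RAB32, which acts in the biogenesis of melanosomes and in defence against bacteria in macrophages, had 3540 bp in THP-1 cells (chr6:146864953-146868492) and no listed peak in RS4;11 cells, where the nearest one lay 52185 bp away. Its relative RAB38 was marked in both lines, with 2112 bp in RS4;11 and 1496 bp in THP-1. Of the RAB3 genes, which act on secretory vesicles, RAB3A had the widest RS4;11 peak of the family at 4145 bp, against 3122 bp in THP-1 cells. RAB3D had 1472 bp and 2011 bp. RAB3B (1308 bp) and RAB3C were marked in THP-1 cells only.

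Of the genes at the cilium, RAB34, which is needed to form the cilium, had no exon peak, and RAB28 and RAB23 were described above. Among the other genes, RAB40B and RAB40C, which carry a SOCS box and take part in ubiquitin ligases, were marked in RS4;11 cells only, with 2128 bp and 4070 bp. In THP-1 cells a peak of 593 bp lay 264 bp upstream of the RAB40B start, and the nearest peak to RAB40C lay 10540 bp away. RAB36 was marked in THP-1 cells only, with 759 bp (chr22:23494844-23495602), inside the gene and away from its start at chr22:23487664. The nearest THP-1 peak lay 2652 bp from that start. RAB40A and RAB42 had no exon peak in either line.

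**Figure D2:**
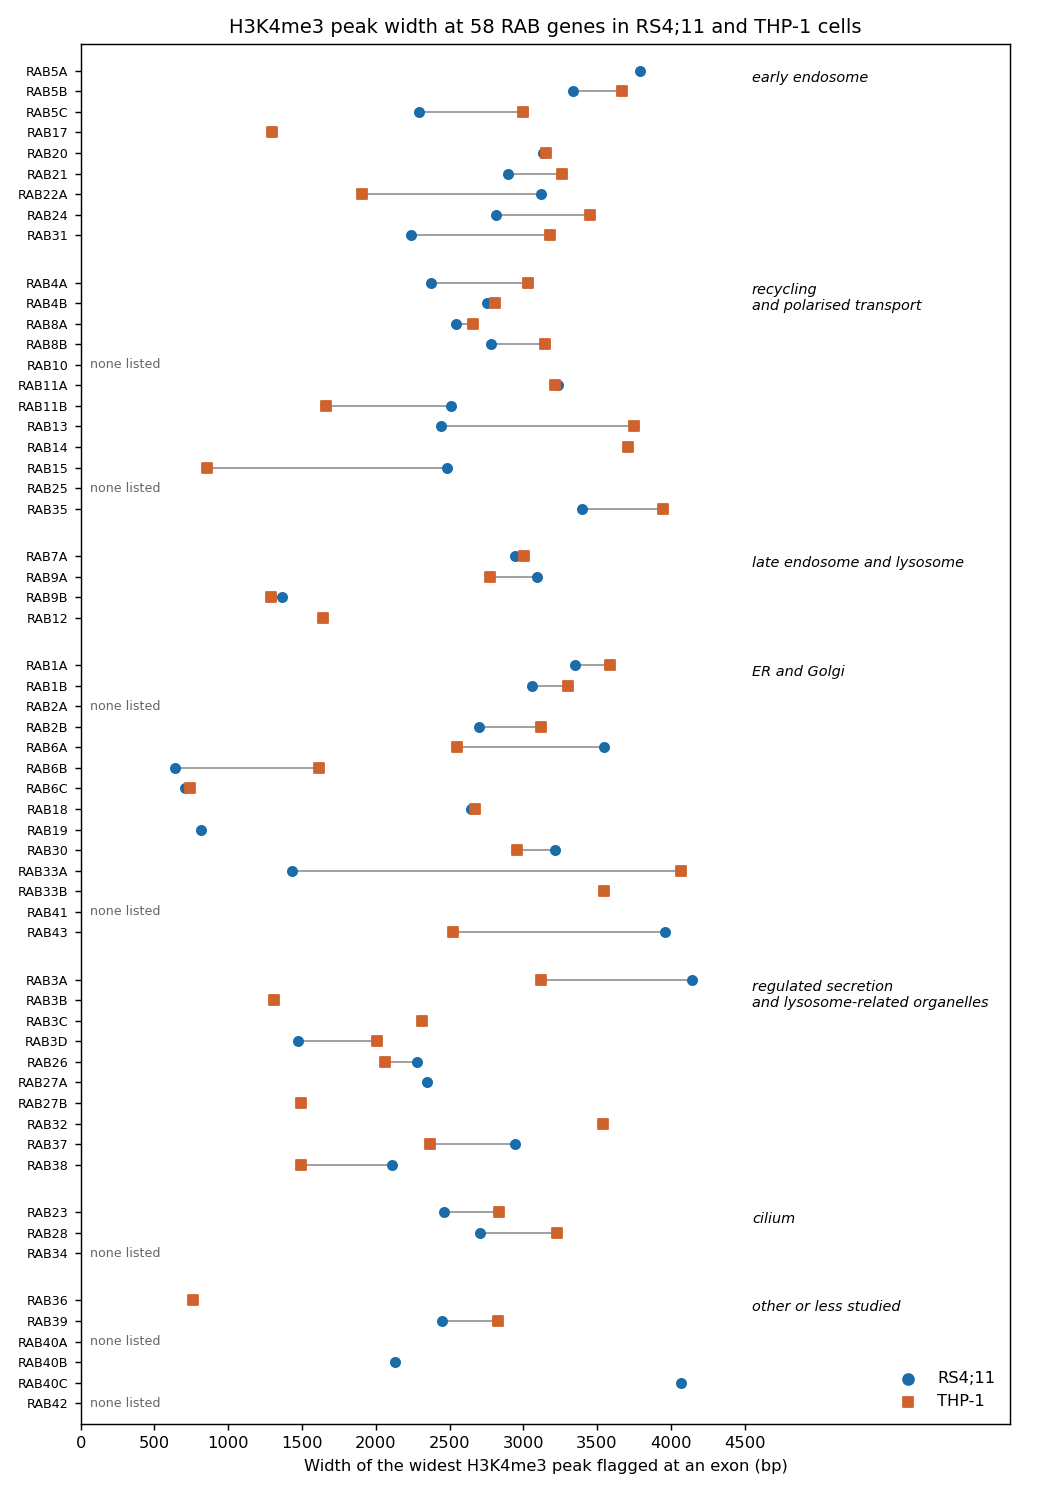
Width in bp of the widest H3K4me3 peak flagged at an exon of each of the 58 RAB genes, in RS4;11 (blue circles) and THP-1 cells (orange squares), 1 sample each, grouped by role, with a line joining the values of a gene marked in both. A single symbol is a gene marked in 1 line only, and the longest joining lines belong to RAB33A and RAB15, the latter with 2 THP-1 peaks of which the exon peak is drawn.

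Numbered paralogs thus went the same way in some sets and apart in others. All members among the 58 genes were marked in both lines for the RAB1, RAB4, RAB6, RAB8, RAB9 and RAB11 sets. RAB6D, listed as LOC150786 and so outside the 58, was marked in THP-1 cells only. The RAB2, RAB3, RAB5, RAB27, RAB33 and RAB40 sets each held members in different classes. RAB27 was the set with 1 gene marked in RS4;11 cells only and 1 in THP-1 cells only.

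The widths of the genes marked in both lines differed about as often as those of all genes. All 37 pairs of widest peaks shared at least 1 bp, and 21 of the 37 (56.8%) were within 1.2-fold of each other, beside 60.4% of all genes marked in both. The median ratio of THP-1 to RS4;11 width was 1.045 (interval of the median over genes, 0.994 to 1.150). Over all genes marked in both it was 0.990, just below that interval. The THP-1 peak was the wider one at 24 of 37 RAB genes (64.9%), beside 47.5% of all genes. At 1.5-fold or more, 3 of 37 RAB genes were wider in THP-1 cells (8.11%, interval 2.80 to 21.3%), beside 7.24% of all genes, and 4 of 37 were wider in RS4;11 cells (10.8%, interval 4.29 to 24.7%), beside 11.0%. RAB genes thus passed this fold about as often as genes at large. At 2-fold, RAB33A, RAB6B and RAB15 remained, RAB15 by its exon peak alone. The median widest peak was 2706 bp (interval 2449 to 2945 bp) over the 42 RAB genes marked in RS4;11 cells, beside 2548 bp over all marked genes. Over the 46 in THP-1 cells it was 2833.5 bp (interval 2366 to 3149 bp), beside 2349 bp, just below that interval. RAB peaks in introns only were narrower, with medians of 915 bp and 816 bp.

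The 5 widest genes by the larger of their values were RAB3A (4145 bp), RAB33A (4068 bp), RAB43 (3963 bp), RAB35 (3944 bp) and RAB13 (3750 bp). The 5 narrowest were RAB6C (739 bp), RAB9B (1367 bp), RAB6B (1617 bp), RAB3D (2011 bp) and RAB38 (2112 bp). Some widest peaks were also flagged at an exon of a neighbouring gene and cannot be given to 1 gene: 6 of 42 in RS4;11 (14.3%) and 5 of 46 in THP-1 (10.9%), beside 21.0% and 17.9% of all marked genes. RAB1B shared its peak with KLC2, RAB2B with TOX4, RAB4B with MIA, RAB5B with CDK2 and RAB24 with PRELID1 in both lines. RAB24 shared it with MXD3 too in THP-1 cells, and RAB22A with PPP4R1L in RS4;11 cells.

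Peaks over the start reached farther into the gene than away from it. The annotated start (MANE Select transcript) lay in an H3K4me3 peak for 41 of 58 RAB genes in RS4;11 (70.7%) and 42 of 58 in THP-1 (72.4%), beside 57.1% and 61.4% of the 16396 listed genes with such a start. The medians in RS4;11 cells were 997 bp upstream and 1551 bp downstream, and in THP-1 cells 1057 bp and 1596 bp. The longer side was downstream for 31 of the 41 peaks (75.6%) and 29 of the 42 (69.0%), beside 74.9% and 74.8% over all starts. The gain of RAB33A in THP-1 cells lay downstream, where its peak reached 2618 bp against 206 bp in RS4;11 cells, while upstream it reached 1449 bp and 1224 bp. At RAB15 the RS4;11 peak reached 1566 bp downstream. In THP-1 cells the peak over the start ended 32 bp downstream, and the exon peak followed after a gap of 149 bp, from 182 to 1036 bp downstream. At RAB11B the peaks reached 1290 bp and 1229 bp upstream, and 372 bp downstream in THP-1 cells against 1281 bp in RS4;11 cells. At RAB6B both sides were longer in THP-1 cells, 714 bp against 128 bp upstream and 902 bp against 512 bp downstream. At RAB32 nearly the whole THP-1 peak, 3523 bp, lay downstream of the start.

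**Figure D3:**
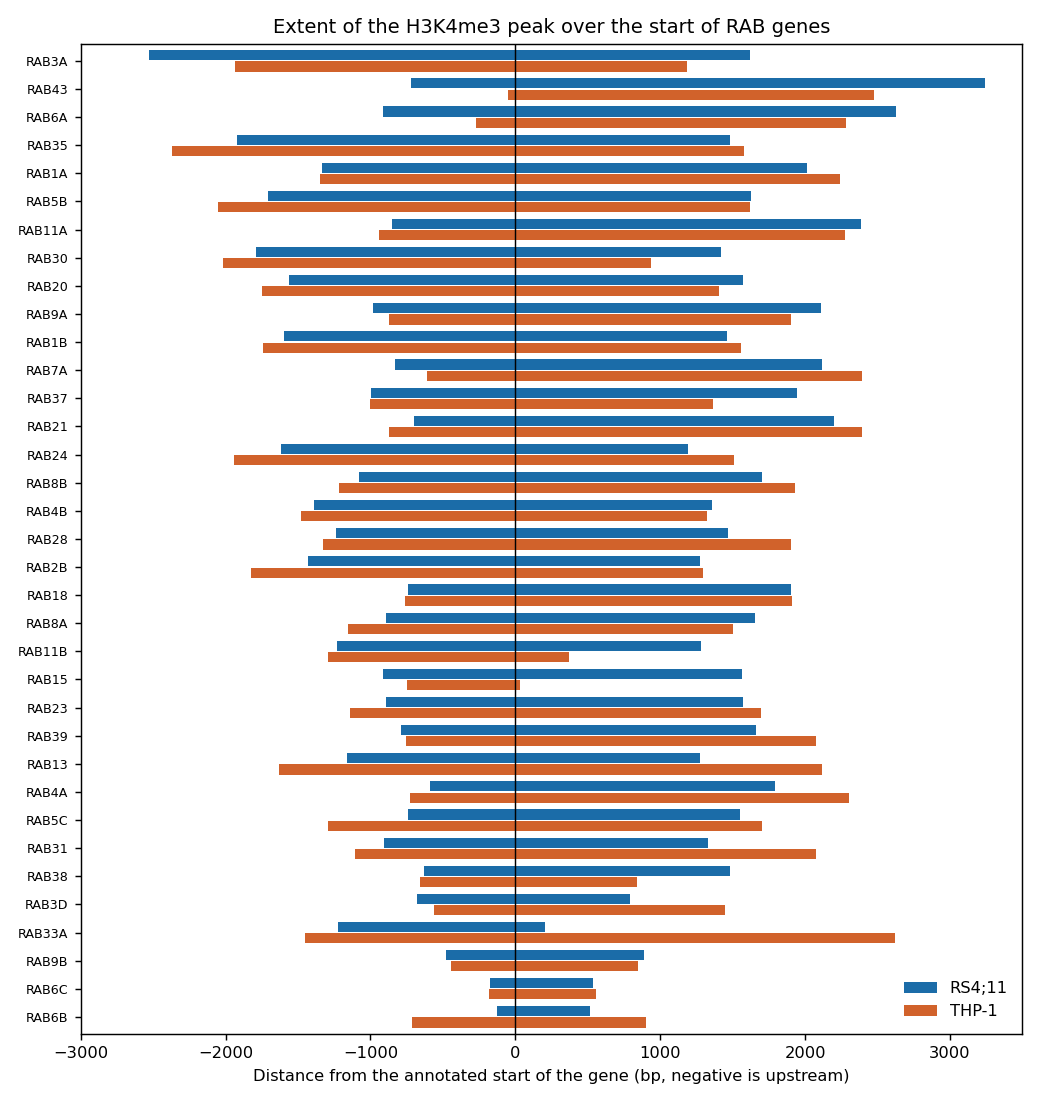
Extent in bp of the H3K4me3 peak over the annotated start (0, negative is upstream) at the 35 RAB genes whose start lay in a peak of both lines, ordered by RS4;11 width, blue for RS4;11 and orange for THP-1 cells. Many pairs of bars are close in extent, whereas others differ, such as RAB6B, RAB13 and RAB43. RAB33A is longer downstream in THP-1 cells and RAB11B in RS4;11 cells. The short THP-1 bar of RAB15 leaves out its separate exon peak, which reached 1036 bp downstream.

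The width of a peak in one line was set against its presence in the other, because neither file held a very wide peak. Over all genes, 93.6% of those with a widest peak of at least 2000 bp and under 3000 bp in RS4;11 cells were also marked in THP-1 cells, and this share was 67.0% from 4000 bp up. From THP-1 to RS4;11 cells the shares were 88.4% and 76.7%. Of the 5 RAB genes of 3500 bp or more in RS4;11 cells, 3 were also marked in THP-1 cells, and RAB5A and RAB40C were not, beside 78.0% of all genes of that width. Of the 8 such genes in THP-1 cells, 5 were also marked in RS4;11 cells, and RAB14, RAB32 and RAB33B were not, beside 82.6% of all genes. For these 5 genes an absence of the mark in the other line and a wide peak that was not listed there cannot be told apart.

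**Figure D4:**
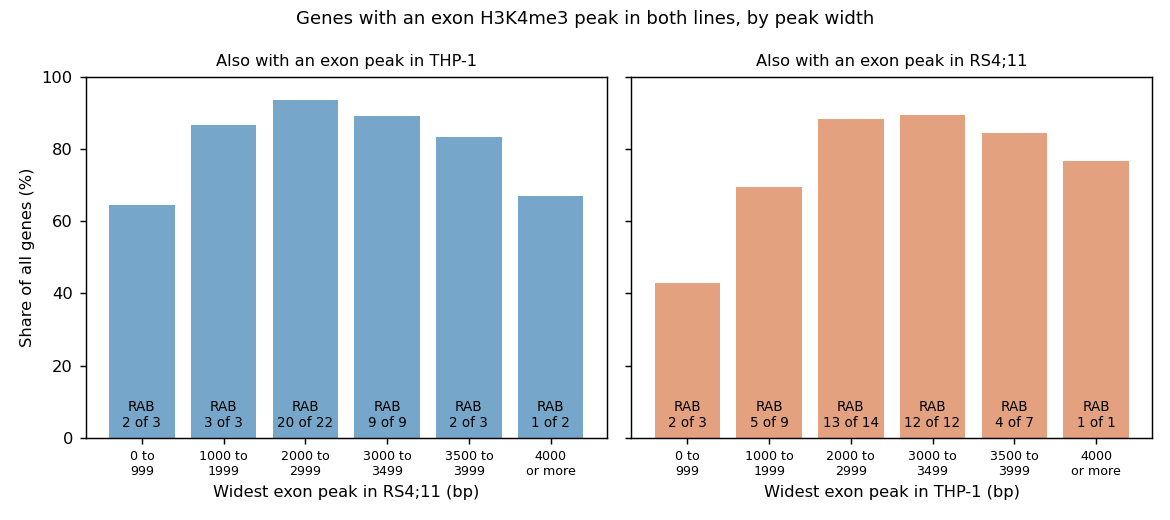
Share in percent of all genes with an exon H3K4me3 peak in one line that also had one in the other line, by the width in bp of the widest exon peak in RS4;11 (left, blue) and THP-1 cells (right, orange), with the counts of RAB genes printed in the bars. The share is highest at intermediate widths and falls for narrow and for the widest peaks in both panels.

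Most RAB genes start in CpG-rich sequence, and 4 stretches of 250 bases before the annotated start are shown for the span of the family. That of RAB28 (chr4:13485965-13486214, minus strand) lies in its H3K4me3 peaks, whereas its WDR5 peaks lie downstream of the start, outside this stretch. RAB32 (chr6:146864719-146864968, plus strand) was marked in THP-1 cells only. RAB10 (chr2:26256703-26256952, plus strand) is CpG-rich with no exon peak, and RAB40A (chrX:102774418-102774667, minus strand) is CpG-poor with no exon peak. The stretches are on the strand of the gene in GRCh37, with CpG in capitals.
RAB28: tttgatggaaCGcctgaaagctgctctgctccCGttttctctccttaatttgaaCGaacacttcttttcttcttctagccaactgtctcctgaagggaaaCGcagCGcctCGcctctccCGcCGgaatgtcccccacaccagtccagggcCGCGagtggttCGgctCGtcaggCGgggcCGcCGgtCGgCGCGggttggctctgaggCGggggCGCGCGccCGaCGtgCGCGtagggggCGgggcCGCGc
RAB32: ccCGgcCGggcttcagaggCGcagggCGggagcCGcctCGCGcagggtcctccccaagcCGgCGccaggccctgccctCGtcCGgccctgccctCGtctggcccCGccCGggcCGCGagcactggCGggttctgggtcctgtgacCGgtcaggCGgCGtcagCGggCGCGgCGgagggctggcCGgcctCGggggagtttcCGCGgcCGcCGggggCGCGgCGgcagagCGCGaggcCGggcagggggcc
RAB10: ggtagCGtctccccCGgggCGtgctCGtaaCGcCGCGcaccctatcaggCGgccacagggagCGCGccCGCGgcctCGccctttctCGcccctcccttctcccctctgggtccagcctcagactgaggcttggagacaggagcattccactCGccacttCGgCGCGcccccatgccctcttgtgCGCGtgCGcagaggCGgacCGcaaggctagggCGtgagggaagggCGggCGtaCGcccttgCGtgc
RAB40A: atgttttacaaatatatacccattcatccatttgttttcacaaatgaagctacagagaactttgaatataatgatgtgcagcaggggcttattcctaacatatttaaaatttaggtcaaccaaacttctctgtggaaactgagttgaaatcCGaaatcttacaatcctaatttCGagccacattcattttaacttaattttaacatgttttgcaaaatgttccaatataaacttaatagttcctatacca

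These stretches held 29 CpG at RAB28, 36 at RAB32, 28 at RAB10 and 2 at RAB40A. Counted over 300 bp, from 250 bp before the start, the median was 30 CpG over the 58 RAB genes and 23 over all 18922 annotated starts. The 18922 starts include genes without a row in any file, so the sets are unlike. RAB genes marked in both lines had a median of 30 (range 14 to 52, the highest at RAB31), those in RS4;11 cells only 32, those in THP-1 cells only 29, and those in neither line 16. Over all genes of the files the same classes had medians of 27, 25, 25 and 10. The 7 unmarked RAB genes were mixed. RAB40A had 2 CpG, RAB42 had 7, RAB25 had 9, RAB41 had 16 and RAB34 had 22, whereas RAB10 had 35 and RAB2A 46, as many as marked genes.

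**Figure D5:**
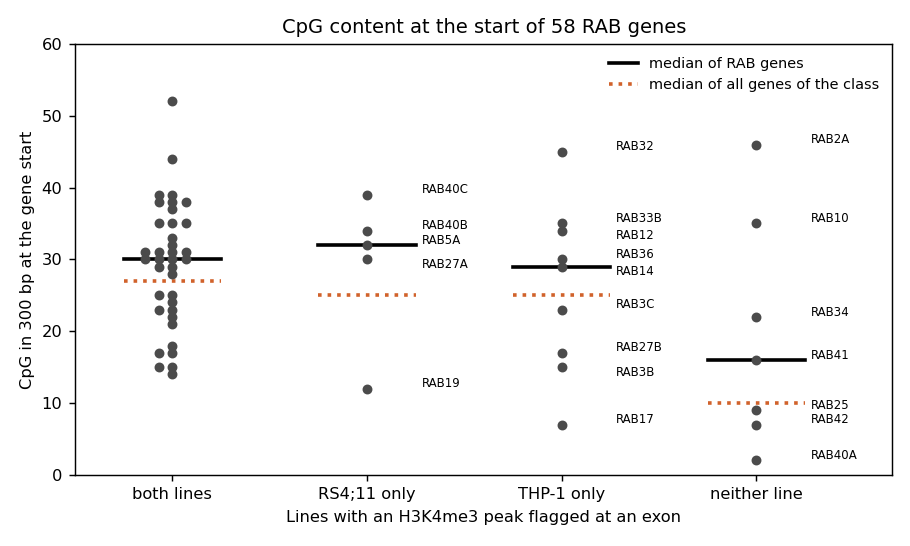
Number of CpG in 300 bp at the start of each of the 58 RAB genes (points), by the lines in which an exon H3K4me3 peak was listed, with the median of the RAB genes (black bars) and of all genes of that class (orange dotted bars). RAB10 and RAB2A stand high in the class with no exon peak, and RAB40A is the lowest of all.

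What was listed around the 7 unmarked genes also differed. RAB10 had 2 peaks in introns only in RS4;11 and 3 in THP-1, the nearest 34379 bp and 10034 bp into the gene. RAB2A had 1 peak upstream in RS4;11 cells, 3177 bp from its start, and 1 in an intron in THP-1 cells, 8122 bp from it. RAB34 had a peak near its start in both lines, 1036 bp and 961 bp upstream, of 3242 bp and 3896 bp, that was flagged at exons of RPL23A, a ribosomal protein gene. The nearest peaks to RAB41 in both lines were flagged at exons of KIF4A and PDZD11, and those of RAB42 at SNHG12. RAB40A had no listed peak in RS4;11 cells and 1 upstream in THP-1 cells.

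The regulators of RAB proteins were counted in the same way over 95 genes in 4 lists. Of these, RS4;11 cells had 71 marked (74.7%), beside 63.1% of all genes, and THP-1 cells 67 (70.5%), beside 69.7%. Some of the 95 had no row in any file, whereas every background gene had one, so the sets are unlike. Of 30 exchange factors, which load GTP, 22 were marked in each line. Of 27 GTPase-activating proteins, which end the active state, 21 were marked in RS4;11 and 19 in THP-1. Of 30 effectors, which act downstream of the GTP-bound form, 23 and 21 were marked. Of 8 genes for lipid attachment and membrane extraction, 5 were marked in each line, and CHML, RABGGTB and GDI2 in neither. WDR5 peaks were listed at 6 of the 95 genes in RS4;11 cells (RIN3, DENND1B, RABGAP1L, TBC1D14, RIMS1 and BICD1) and at 6 in THP-1 cells (DENND1A, DENND4C, DENND5A, EVI5, TBC1D5 and TBC1D24), 6.32% in each line, beside 4.90% and 1.63% of all genes. No gene was in both, and the counts are too small to read from that.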

How the data were processed

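WDR5 and H3K4me3 ChIP-seq peaks of RS4;11 and THP-1 cells were used, 1 sample per group. Per the methods, the authors sonicated chromatin for WDR5 and used micrococcal nuclease for H3K4me3, called peaks with MACS from reads that Eland had placed at a single position of hg19 with up to 2 mismatches. The submitters' processing notes name CASAVA 1.7 and 1.8.2. The deposited files hold peak positions and flags for exon, intron and 20 kb upstream or downstream of each transcript, without counts, heights, p-values or summits, so the depth is unknown and no peak could be weighted.

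Lines were reduced to distinct peaks, and widths count both end positions. Genes were matched by the deposited symbol. The background was the 16785 genes with a RefSeq mRNA row in any file. Starts and introns came from GENCODE release 44 mapped to GRCh37 (MANE Select), sequence from GRCh37, and current symbols from RefSeq. No peak ran past a chromosome end. The sequence of 1 WDR5 peak and the values of 1 marker gene are not reported here. Overlap meant at least 1 bp. Named genes were RAB28, RAB genes with a WDR5 peak, those marked in 1 or neither line, the 5 widest and 5 narrowest marked in both, and those differing by 1.5-fold or more, and others were added after their values were seen to illustrate a role. The members and gene lists were chosen with earlier results of these data known. Scripts were tested on simulated peaks with planted overlaps and width changes. Alternatives changed the flags, windows, width measure, fold, filter on narrow peaks, symbols and overlap. Python 3.11.15, numpy 2.4.6 and scipy 1.17.1 were used.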

Additional observations from a re-analysis of the deposited data

How the results depend on the processing

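Of 47 alternatives to the counts, overlaps and median widths of the RAB genes, 41 left the value within the limit set for a change (1.5-fold for counts). The 5 genes marked in RS4;11 cells only became 3 with the exon or intron flag and 0 with any row within 20 kb, since all 58 RAB genes had some row in the THP-1 file. The 9 genes marked in THP-1 cells only became 5 with any row within 20 kb and 5 with the window of 2000 bp upstream to 500 bp downstream of the annotated start. The 7 genes that differed by 1.5-fold or more became 11 with the summed width of all exon peaks and 3 at 2-fold. The window over the start of any protein-coding transcript was chosen after seeing the data. A stricter threshold on peak strength was not run, because the files hold no strength. No paired analysis was possible because each group has 1 sample.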
